A study of Mus musculus with 15 samples.

Results

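Transcripts of the nuclear genes for oxidative phosphorylation subunits were examined in mouse substantia nigra, the midbrain region that holds dopamine neurons. Members were chosen by gene symbol (Nduf but not Ndufaf, Uqcr, Atp5, Cox followed by 4 to 8, and Sdha to Sdhd) and by level, with the average over the libraries reaching 1 in each of 2 deposited tables. This gave 85 genes, out of 36265 with values and 14824 that reached this mean in both tables. A further 19 of the 104 symbols with values lay under the mean of 1. Just inside that threshold lay Cox8b, with means of 2.25 and 2.16 in the 2 tables, and just outside it lay Cox7c-ps1, with means of 0.931 and 0.697. By the complex that each gene's product belongs to, 38 members were of complex I, 4 of complex II, 8 of complex III, 17 of complex IV and 17 of complex V. Ndufa4 and Ndufa4l2 were placed in complex IV, where their products sit despite their names. The remaining member, Cox7a2l, encodes a factor that joins complexes and not a subunit. Atp5a1, Ndufs3 and Uqcrc1 stood more than once with identical values and were counted once. Ndufb4c is annotated as a processed pseudogene and is a near copy of Ndufb4, and Ndufb1-ps is annotated as a noncoding RNA, so the values of these 3 genes are uncertain.

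C57Bl/6J mice received a stereotaxic injection of an adeno-associated virus (AAV) into 1 substantia nigra, and the opposite side was left uninjected. In one set, 3 mice received 1.65e10 vector genomes of AAV-hSYN1-miR-181, and in another, mice received 1e10 vector genomes of AAV-hSYN1-GFP. The hSYN1 promoter acts in neurons, so that neurons were the cells meant to make miR-181 or green fluorescent protein (GFP). Tissue was taken 3 weeks later, and the labels used here give no age. The miR-181 set had 3 injected and 3 uninjected libraries, and the GFP set had 4 injected and 5 uninjected ones, with 4 mice giving both sides. The libraries came from polyA RNA of whole dissected tissue, and no mature microRNA was measured. The 2 sets differed in vector, dose, library preparation and sequencer together, with 75-base reads for miR-181 and 50-base reads for GFP, so that these cannot be told apart between sets. Injury from the needle is shared by both injected sides.

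Oxidative phosphorylation takes place in the inner mitochondrial membrane. Complexes I and II pass electrons from NADH and succinate to coenzyme Q, complex III passes them on to cytochrome c, and complex IV hands them to oxygen. Complexes I, III and IV pump protons, and complex V, the ATP synthase, uses the proton gradient to make ATP. Nearly all of the subunits are encoded in the nucleus, but the innermost ones of every complex other than complex II come from mitochondrial DNA. Dopamine neurons of the substantia nigra fire continuously and have a high demand for ATP, and inhibitors of complex I are known to damage them.

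The injected vector carried miR-181, and the mature 5p arms of its family are shown because they share the same seed, bases 2 to 8, given in capitals, the stretch that does most of the pairing with a target. The sequences are those of RefSeq.
mmu-miR-181a-5p: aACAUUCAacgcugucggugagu
mmu-miR-181b-5p: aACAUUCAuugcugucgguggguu
mmu-miR-181c-5p: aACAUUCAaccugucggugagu
mmu-miR-181d-5p: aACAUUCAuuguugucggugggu
A seed match was counted where a 3′ UTR of the GENCODE M21 annotation (GRCm38) held TGAATGT, the complement of bases 2 to 8, or the complement of bases 2 to 7 followed by A. The last A faces the first base of the microRNA and does not pair with it. An 8-base match holds both. Of the 83 members with an annotated 3′ UTR, 5 held a match, which is 6.02%, against 23.9% of 13941 genes tested in both tables. The members' 3′ UTRs were short, with a median of 201 bases against 1206 bases over all those genes. All 6 sites are shown with the match in capitals, since they are all that this search found in the members' longest 3′ UTRs.
Sdha, base 737 of 833 in its 3′ UTR, 8-base match: acttctcactgTGAATGTAactagtttctt
Cox5b, base 21 of 372: ttatcttttcaGAATGTAaagaaaaacttc
Cox5b, base 170 of 372: gcatccacttaGAATGTAaaaccagtatag
Atp5g2, base 277 of 311: ccctgcttgttTGAATGTtggcattaaggg
Atp5l, base 36 of 151: gagttcttattTGAATGTtcttggaccatg
Atp5md, base 2299 of 2494, 8-base match: tgagaacctagTGAATGTAcattttacttt
A match is a run of letters and not a shown target site. Sdha encodes the flavoprotein of complex II and Cox5b a subunit of complex IV, while the other 3 genes encode parts of the ATP synthase.

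Promoter windows, 250 bases before to 50 bases after a transcript start, were listed in RefSeq (GRCm38.p6) for 69 of the members. They were searched on both strands for 3 motifs bound by factors known to drive genes of this kind. The core motif of NRF1, which reads GCGCA, any base and GCGC, was found in 24.6% of these members and in 10.7% of 11191 tested genes with a listed window. AANATGGC, that of YY1, was found in 24.6% and 9.31%. CCGGAAG, bound by GABPA and other ETS factors, was found in 24.6% and 18.3%. At least 1 of the 3 was found in 63.8% of the members and in 32.9% of all these genes. Each share is of genes with the motif in at least 1 listed window, so a run that reads the same on both strands adds nothing to it. None of these shares was tested. The 3 windows below show each motif, in capitals, in members described further on.
Sdha, chr13:74350191-74350490, minus strand, NRF1 motif at 3 places: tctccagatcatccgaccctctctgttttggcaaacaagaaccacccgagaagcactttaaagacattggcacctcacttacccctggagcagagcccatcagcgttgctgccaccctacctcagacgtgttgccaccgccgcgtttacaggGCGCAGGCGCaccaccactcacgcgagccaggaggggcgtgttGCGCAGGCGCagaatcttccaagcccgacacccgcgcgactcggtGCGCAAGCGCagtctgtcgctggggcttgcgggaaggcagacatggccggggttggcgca
Sdhd, chr9:50603800-50604099, minus strand, NRF1 motif and, nearer the start, ETS motif on the other strand: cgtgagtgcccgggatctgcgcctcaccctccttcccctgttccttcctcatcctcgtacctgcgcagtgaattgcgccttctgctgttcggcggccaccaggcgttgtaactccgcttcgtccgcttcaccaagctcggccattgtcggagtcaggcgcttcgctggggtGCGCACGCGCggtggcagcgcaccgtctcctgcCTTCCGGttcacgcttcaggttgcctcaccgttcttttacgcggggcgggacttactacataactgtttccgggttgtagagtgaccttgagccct
Ndufb5, chr3:32736813-32737112, plus strand, YY1 motif at 2 places: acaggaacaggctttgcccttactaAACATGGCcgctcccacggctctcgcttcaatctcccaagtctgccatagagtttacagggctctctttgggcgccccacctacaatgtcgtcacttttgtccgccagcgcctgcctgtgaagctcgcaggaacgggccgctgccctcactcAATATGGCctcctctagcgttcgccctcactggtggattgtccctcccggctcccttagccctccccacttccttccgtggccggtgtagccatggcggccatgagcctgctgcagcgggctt
The windows of Uqcrfs1, Cox5b and Ndufa4 held none of the 3 motifs.

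Deposited values are normalized levels. They were taken to be corrected for transcript length, from their sums per library and not from a stated unit, and comparisons of level between genes rest on that reading. The read depth behind them is unknown. Replicate libraries correlated at 0.961 to 0.986 across genes within a group, and 15022 to 15563 genes had a value of at least 1 in a library. Dopamine neuron markers were present in every library, with a summed level of 1213 to 3162 over 14 genes. A few libraries stood apart. In GFP mouse 1, 6 pituitary genes made up 4.82% of the uninjected library and 0.241% of the injected one, and in miR-181 mouse 2 the median change of the dopamine neuron markers was -0.88 on the log2 scale, against 0.01 and 0.06 in the other mice. Results are therefore also given without these mice.

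The subunit transcripts were abundant. On the uninjected sides the median level of the 85 members was 292 in the miR-181 set and 316 in the GFP set, and 76 of 85 lay at 100 or above in each set. Atp5b, the catalytic β subunit of the ATP synthase, was the highest, at 1610 ± 45.1 (SD, n = 3) in the miR-181 set and 1791 ± 63.8 (n = 5) in the GFP set, and stood 40th among all genes in both. Cox4i1, a complex IV subunit that binds regulators of the enzyme, was next at 1225 ± 30.8 and 1328 ± 64.4. By complex, the median level in the miR-181 set was 229 for complex I, 169 for complex II, 286 for complex III, 432 for complex IV and 441 for complex V. In the GFP set it was 267, 194, 318, 493 and 497, in the same order. Of the 8 members below 50, all but Ndufb4 and Atp5g2 were isoforms of complex IV. The lowest was Cox8b, known from heart and skeletal muscle, at 3.01 ± 1.98 and 2.12 ± 1.15. Levels varied little between uninjected libraries, with a median coefficient of variation of 3.56% in the miR-181 set and 4.26% in the GFP set.

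**Figure D1:**
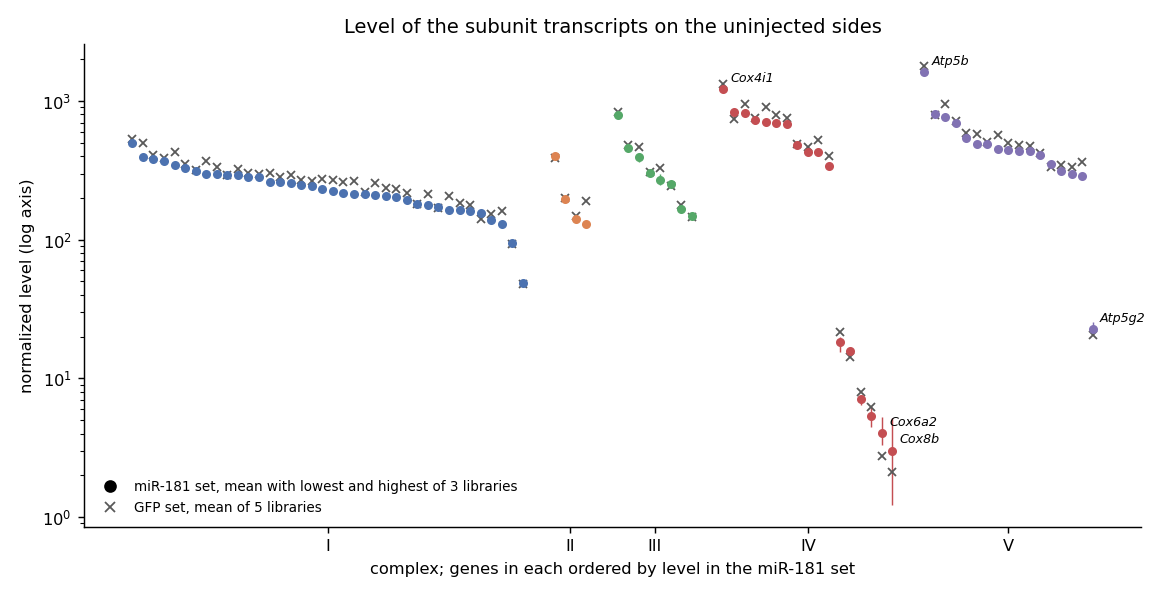
Level of the members on the uninjected sides, on a log axis, ordered within each complex by the level in the miR-181 set. Filled points are the mean of 3 libraries of the miR-181 set with a bar from the lowest to the highest, and crosses are the mean of 5 libraries of the GFP set. Atp5b is the highest gene in both sets, and 6 isoforms of complex IV lie below 50.

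After miR-181 injection, most subunit transcripts were a little lower, with a median change below 0 in all 5 complexes. Of the 85 members, 3 fell by limma's test at a Benjamini-Hochberg adjusted p of 0.05, 1 each of complexes II, III and IV, and 0 rose. That is 3.53% of the members, against 1.49% of 15453 tested genes that fell and 4.39% that rose, 5.88% in all. The 3 were Uqcrfs1, the Rieske iron-sulfur protein of complex III, Cox5b of complex IV and Sdhd, a membrane anchor of complex II. The rest of the members gave no adjusted p under 0.05, but 68 of 85 had a log2 change below 0, which is 80.0% against 49.2% of all tested genes. At an unadjusted p under 0.05, 28 members were lower, 32.9% against 10.7% of all, and 1 was higher, 1.18% against 12.8%. These 29 members became 16 without the uninjected library of mouse 2, 14 without both libraries of mouse 2 and 17 without the intensity trend of the fit. In the other direction, they became 36 after quantile normalization and 49 after median centring. The 3 injected libraries lay below all 3 uninjected ones for 37 members, 43.5% against 14.5% of all, and above them for 3, 3.53% against 16.0%. All 3 mice were lower on the injected side for 43 members, 50.6% against 25.1% of all, and higher for 8, 9.41% against 25.2%. The median change was -0.07 on the log2 scale, against 0.00 over all tested genes, and mouse by mouse it was -0.06, -0.11 and -0.07. After quantile normalization it was -0.09 against -0.06 over all genes, a smaller gap. The members share libraries, so these counts are not counts of independent events. In whole tissue, a change in the mix of cells and a change of a transcript within cells cannot be told apart.

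**Figure D2:**
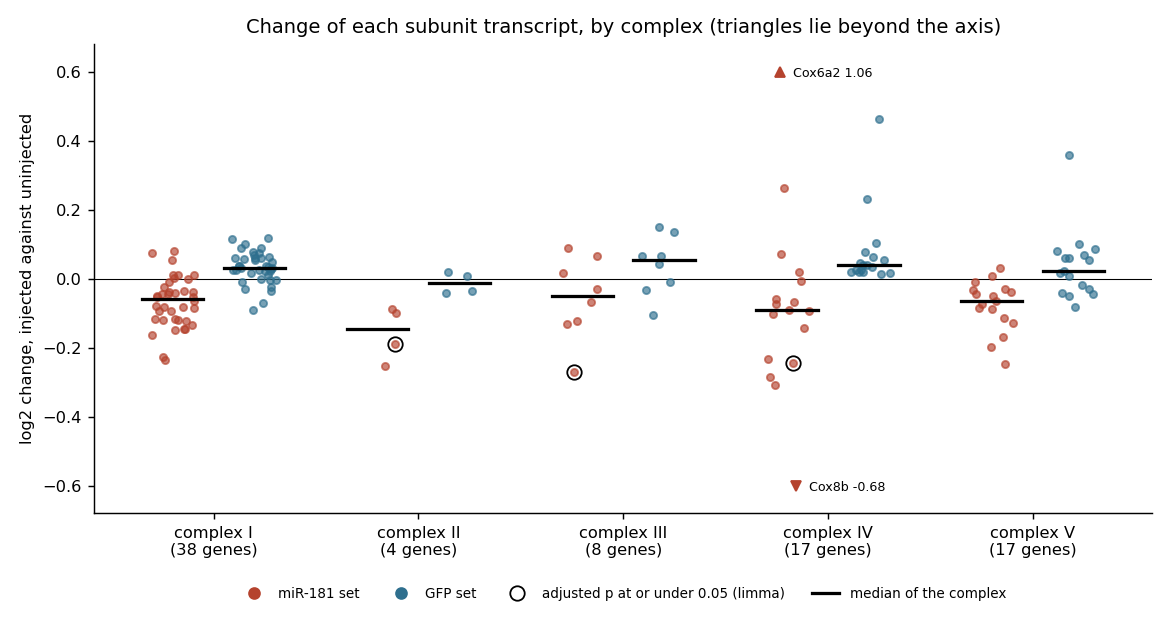
Log2 change between injected and uninjected sides for each member, by complex, in the miR-181 set and the GFP set. Each point is a gene, black bars are medians, ringed points have a limma adjusted p at or under 0.05, and triangles mark Cox6a2 (1.06) and Cox8b (-0.68), which lie beyond the axis. The medians of the miR-181 set lie below 0 in every complex, from -0.05 in complex III to -0.14 in complex II.

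Complex I, the NADH dehydrogenase, had 0 of 38 members past limma's adjusted threshold and 11 lower at an unadjusted p under 0.05. Its median change was -0.06, with 31 of 38 below 0, where 49.2% of all tested genes were, and 17 whose groups did not overlap and were lower on the injected side, where 14.5% of all were. Ndufs1, the largest iron-sulfur subunit, was at 145, 121 and 137 in the injected libraries of mice 1 to 3, and at 154, 156 and 160 in the uninjected ones. Its groups did not overlap, and the injected library of mouse 2 was the lowest. The log2 change of Ndufs1 was -0.23 ± 0.07 (SE), with an adjusted p of 0.114 by limma. Ndufs7, whose product passes electrons to coenzyme Q, was at 210, 212 and 211 against 240, 227 and 234, again without overlap (log2 change -0.15, limma adjusted p 0.0857). Ndufv1, which binds NADH, was at 227, 214 and 229 against 247, 246 and 242. Each of these 3 core subunits had its injected libraries below its uninjected ones.

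Split by place in the enzyme, the 16 subunits of the matrix arm of complex I had a median change of -0.06 and the 21 of the membrane arm one of -0.05. Ndufab1, the acyl carrier protein found in both arms, had a change of -0.24 (limma adjusted p 0.127). A split made after the values were seen sets the 7 nuclear core subunits, those conserved from bacteria, beside the 31 accessory ones. The median change was -0.13 for the core subunits, with 7 of 7 below 0, and -0.05 for the accessory subunits, with 24 of 31 below 0. Of all tested genes, 49.2% were below 0. Since the split was chosen from these same values, it was not tested. Summed over the 7 core genes, the level was 1374, 1326 and 1358 in the injected libraries against 1476, 1479 and 1475 in the uninjected ones. The uninjected sides thus differed little among themselves, and each injected side lay below them. Among accessory subunits, Ndufb5 was at 291, 271 and 292 against 310, 317 and 318, a log2 change of -0.15 (limma adjusted p 0.112). In the other direction, Ndufb7 was at 201, 232 and 227 against 215, 216 and 204, and its groups overlapped.

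Complex II, succinate dehydrogenase, is also an enzyme of the tricarboxylic acid (TCA) cycle and the one complex with no subunit from mitochondrial DNA. All 4 of its members had changes below 0, with a median of -0.14. Sdhd was at 123, 120 and 126 in the injected libraries and at 139, 143 and 140 in the uninjected ones. The groups lay well apart, and every mouse was lower on its injected side. Sdhd fell by 12.3%, a log2 change of -0.19 ± 0.04 (SE), with a limma adjusted p of 0.0437 that became 0.0797 with mouse as a block. Sdha, the flavoprotein that oxidizes succinate, was at 360, 305 and 342 against 393, 397 and 407, with mouse 2 the lowest. Its log2 change was larger, -0.25 ± 0.06, but its injected libraries were more spread and the limma adjusted p was 0.0713. Sdhb, the iron-sulfur subunit, was at 185, 185 and 181 against 191, 201 and 198. The other anchor, Sdhc, was at 126, 115 and 128 against 137, 126 and 129, and its groups overlapped. The summed level of the 4 genes was 794, 725 and 776 against 859, 867 and 875, without overlap.

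Complex III, the cytochrome bc1 complex, was mixed. Uqcrfs1, whose iron-sulfur centre takes electrons from coenzyme Q, was at 129, 118 and 121 in the injected libraries against 145, 149 and 150 in the uninjected ones. All 3 injected libraries lay below the lowest uninjected one. Uqcrfs1 fell by 17.1%, a log2 change of -0.27 ± 0.05 (SE), with a limma adjusted p of 0.0262 that became 0.0551 with mouse as a block. The 2 core proteins, which hold the complex together, were also without overlap, Uqcrc1 at 152, 148 and 155 against 166, 164 and 168 (log2 change -0.13, limma adjusted p 0.106). For Uqcrc2 the levels were 239, 221 and 236 against 241, 255 and 261. Some small accessory subunits had changes above 0. Uqcr10 was at 469, 505 and 467 against 451, 469 and 457, and Uqcrq at 300, 303 and 259 against 263, 299 and 249, both with overlap. The median of the 8 members was -0.05, and their summed level overlapped between sides.

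Complex IV, cytochrome c oxidase, had a median change of -0.09, with 13 of 17 below 0. Cox5b, a zinc-binding subunit on the matrix side, was at 615, 592 and 573 in the injected libraries against 715, 728 and 667 in the uninjected ones. The highest injected library was below the lowest uninjected one, and the changes of the 3 mice were close together, at -0.22, -0.30 and -0.22. Cox5b fell by 15.6%, a log2 change of -0.24 ± 0.05 (SE), with a limma adjusted p of 0.0431, and it was the 1 member still past the threshold with mouse as a block (0.0473). Ndufa4, which sits on complex IV, had a larger change of -0.29 ± 0.07 but unequal mice, at 625, 518 and 553 against 658, 701 and 705, and a limma adjusted p of 0.0742. The change was -0.07 in mouse 1, -0.43 in mouse 2 and -0.35 in mouse 3. Cox7b was at 310, 296 and 263 against 331, 344 and 344 (log2 change -0.23, limma adjusted p 0.092). Cox5a was at 453, 405 and 447 against 466, 490 and 482, and the abundant Cox4i1 at 1167, 1195 and 1143 against 1233, 1252 and 1191. The groups of Cox5a did not overlap, while those of Cox4i1 did. Cox6a1 and Cox8a, at medians of 701 and 817 on the injected sides, had changes of -0.01 and 0.02.

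The alternative isoforms of complex IV, among them those that muscle, lung or testis use, were low throughout. Cox6a2, the heart and muscle form, was at 6.45, 14.7 and 7.16 in the injected libraries against 5.26, 3.601 and 3.29 in the uninjected ones. All 3 injected libraries lay above the uninjected ones, and mouse 2 was the highest. This was the largest change among the 85 members, 1.06 on the log2 scale, but with an SE of 0.32 and a limma adjusted p of 0.108. Cox6a2 made up 1.25% ± 0.461 (SD, n = 3) of the Cox6a1 and Cox6a2 transcripts on the injected sides and 0.55% ± 0.13 on the uninjected ones. In the GFP set its share was 0.446% on the injected sides and 0.368% on the uninjected ones, with overlap. Cox4i2, the lung form, was 0.549% of its pair after miR-181 injection and 0.434% on the uninjected sides. The log2 change of Cox4i2 was 0.26 (limma adjusted p 0.292), with 6.28, 6.69 and 6.36 against 6.21, 4.43 and 5.35, and its groups did not overlap. Cox7a1, a muscle form, was at 15.1, 13.8 and 15.1 against 19.6, 20.03 and 15.4 (log2 change -0.31, limma adjusted p 0.160). Cox8b, at 2.03, 1.34 and 1.101 against 2.66, 1.23 and 5.14, and Ndufa4l2, at 6.06, 8.50 and 8.08 against 7.59, 6.46 and 7.25, overlapped. At such levels a value rests on few reads, although their number is unknown.

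Complex V, the ATP synthase, had 0 of 17 members past the threshold and 15 of 17 below 0, with a median of -0.06. Of its catalytic F1 head, the α subunit Atp5a1 was at 361, 319 and 355 in the injected libraries against 406, 406 and 417 in the uninjected ones. Its groups lay far apart compared with the spread, and its log2 change of -0.25 ± 0.06 missed the threshold narrowly (limma adjusted p 0.0503). The β subunit Atp5b was at 1456, 1371 and 1469 against 1596, 1661 and 1574, without overlap (log2 change -0.17, limma adjusted p 0.103). Atp5d, the δ subunit of the stalk, was at 292, 318 and 303 against 327, 309 and 304, with overlap. The 5 genes of the F1 head summed to 2883, 2814 and 2912 against 3096, 3190 and 3093.

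The c-ring of the ATP synthase, which turns as protons pass, is made of 1 protein encoded by 3 genes. Atp5g3 gave most of these transcripts, 63.0% ± 1.02 (SD, n = 3) on the uninjected sides of the miR-181 set and 57.3% ± 0.805 (n = 5) in the GFP set. Atp5g3 was at 734, 657 and 714 after miR-181 injection against 782, 816 and 814, without overlap (log2 change -0.20, limma adjusted p 0.0844). Atp5g1 was at 424, 418 and 424 against 450, 465 and 431, and the scarce Atp5g2 at 23.9, 16.6 and 27.4 against 20.6, 25.5 and 22.3. The groups of Atp5g1 lay apart by a small gap, and those of Atp5g2 overlapped. Atp5g3 made up 61.2% ± 0.943 of the 3 genes' transcripts on the injected sides, with 60.2% to 62.1% in the 3 libraries, below the 62.4% to 64.2% of the uninjected ones. The peripheral stalk (4 genes, median change -0.06) and the membrane subunits (5 genes, -0.05) were close to the whole complex. Atp5j2, a membrane subunit, was at 280, 298 and 285 against 282, 289 and 287.

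**Figure D3:**
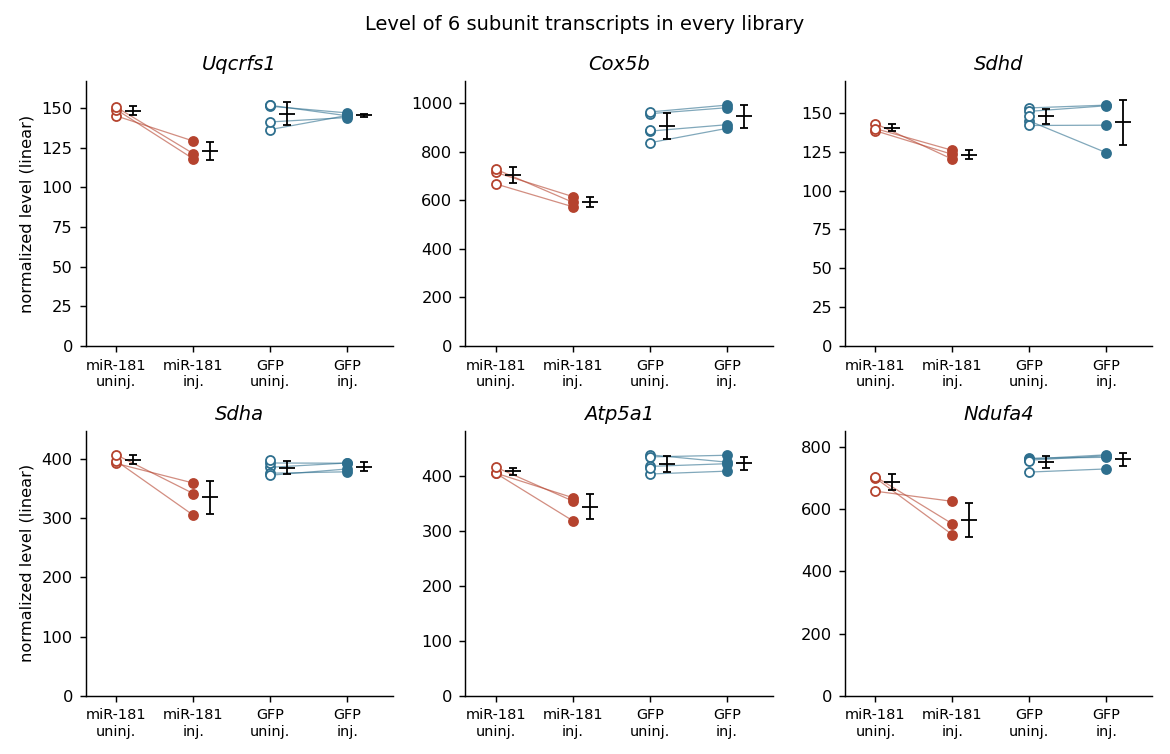
Level of 6 members in every library, on linear axes that start at 0. Open points are uninjected sides, filled points are injected sides, lines join the sides of 1 mouse, and black bars are the mean and SD of each group. The injected libraries of the miR-181 set lie below the uninjected ones in all 6 panels, and the groups of the GFP set overlap in all 6. The 6 were picked by their low p in the miR-181 set. In the GFP set the groups lie apart for 1.00% of all tested genes that are lower and 3.29% that are higher.

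The 3 calls did not hold under every way of fitting the data. Across 15 alternatives, Cox5b was past the threshold in 7 and Uqcrfs1 and Sdhd in 6 each, while all 3 had a change below 0 in all 15. Without both libraries of mouse 2, 0 members were called and the members' median was -0.07. With mouse as a block, 1 member was called in place of 3. Leaving out the injected library of mouse 1 raised the calls to 10, adding Atp5a1, Atp5g3, Cox7b, Ndufa4, Ndufab1, Ndufs1 and Sdha, while leaving out any other single library gave 0. Mouse 1 had the smallest change of the 3 mice in Uqcrfs1, Sdha, Atp5a1 and Ndufa4, and mouse 3 in Sdhd.

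After GFP injection, no subunit transcript passed the test. By limma 0 of 85 members were called in either direction, against 1.34% of 15274 tested genes that rose and 0.0131% that fell, 1.35% in all. At an unadjusted p under 0.05, 4 members were higher (Ndufb8, Uqcr10, Ndufb7 and Uqcrq), 4.71% against 6.84% of all, and 0 lower, against 2.68%. The median change was 0.03, against 0.00 over all genes, and 65 of 85 members lay above 0, all 17 of complex IV among them, and 23.5% lay below 0 against 48.2% of all. All 4 mice were higher on the injected side for 19 members, 22.4% against 11.2% of all, and lower for 2, 2.35% against 7.56%. Mouse by mouse the median was 0.01, 0.04, 0.07 and 0.00. Quantile normalization turned the sign, with a median of -0.017 and 57 of 85 below 0, but it also moved the median of all genes to -0.024, so that the members stayed close to all genes and no direction is read for the GFP set. Without both libraries of mouse 1, which held pituitary RNA, 0 members were called and the median was 0.04. The groups did not overlap for 1 member that lay higher, 1.18% against 3.29% of all, and for 0 that lay lower, against 1.00%. This was Atp5d, at 355 to 385 with a median of 362 in the 4 injected libraries and at 327 to 352 in the uninjected ones.

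Members with the lowest p after miR-181 injection did not pass the test after GFP injection, where 0 of 85 did, and their groups overlapped. So did those of most genes, since 1.00% of all tested genes lay apart and lower and 3.29% apart and higher. These members were picked by their p in the miR-181 set, so their overlap here does not compare the 2 vectors. Uqcrfs1 was at 145, 147, 145 and 144 on the injected sides of GFP mice 1 to 4, and at 136 to 152 on the 5 uninjected ones (log2 change -0.01, limma adjusted p 0.963). Cox5b was at 981, 992, 911 and 896 against 837 to 964, a change of 0.06 (limma adjusted p 0.761). Sdhd was at 155, 124, 155 and 142 against 142 to 153. Of these the injected Sdhd library of mouse 2 was the one that lay below the uninjected range. Sdha was at 394, 393, 379 and 383 against 373 to 398, Atp5a1 at 426, 439, 410 and 423 against 405 to 440, and Ndufa4 at 767, 730, 775 and 772 against 720 to 764. The 4 members with the lowest p in the GFP set were Uqcr10, with a change of 0.15 (limma adjusted p 0.281), Ndufb8 at 0.12 (0.352), Ndufb7 at 0.10 (0.402) and Uqcrq at 0.14 (0.523).

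The change of each miR-181 mouse was then set against that of each GFP mouse, which tests the difference of the 2 injections. By limma on the 7 mice, 0 members were called, where 5 of 14824 genes, 0.0337%, were called in all, 0.0270% lower and 0.00675% higher with miR-181. At an unadjusted p under 0.05, 26 members were lower with miR-181, 30.6% against 8.25% of all genes, and 0 were higher, against 7.05%. The 26 became 16 without miR-181 mouse 2, 17 without GFP mouse 3 and 14 without the intensity trend, but 35 after median centring. The difference was below 0 for 77 of 85 members, 90.6% against 50.0% of all, and its median was -0.09 against 0.00 over all genes. After quantile normalization these medians were -0.06 and -0.02, again closer together. Every miR-181 mouse lay below every GFP mouse for 29 members, 34.1% against 7.94% of all, and above for 0, against 6.83%. By complex these 29 were 12 of complex I, 1 of complex II, 3 of complex III, 9 of complex IV and 4 of complex V. Cox5b had the smallest p, with mouse changes of -0.22, -0.30 and -0.22 against 0.04, 0.04, 0.04 and 0.10. Its difference was -0.30 ± 0.05 (SE), with a limma adjusted p of 0.0866. For Ndufa4 the difference was -0.31 (adjusted p 0.161), for Uqcrfs1 -0.27 (0.132), for Sdha -0.27 (0.129) and for Atp5a1 -0.25 (0.119), all by limma. Sdhd, with a mouse change of -0.22 in GFP mouse 2, gave -0.15 (0.381). Without miR-181 mouse 1, 4 members were called lower, Atp5a1, Cox5b, Ndufa4 and Sdha, and without any other mouse 0.

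Summed over the 85 members, the level was 27890, 27816 and 27526 in the injected libraries of the miR-181 set and 29101, 30107 and 28929 in the uninjected ones. The injected sides lay below all uninjected ones, at 94.4% of their mean, and made up 2.76% to 2.79% of the library's total value against 2.93% to 3.03%. In the GFP set the sum was 33620, 33725, 33079 and 32163 on the injected sides. Those libraries overlapped the uninjected ones, at 31503 to 33378, and had 102% of their mean. By complex, the sums of the miR-181 set did not overlap for complexes I, II, IV and V. For complex IV they were 6977, 7047 and 6730 against 7415, 7639 and 7219, and for complex V 8380, 8118 and 8288 against 8670, 9106 and 8742. For complex I they were 8750, 8814 and 8758 against 9122, 9317 and 9061. No test was made on sums over members.

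**Figure D4:**
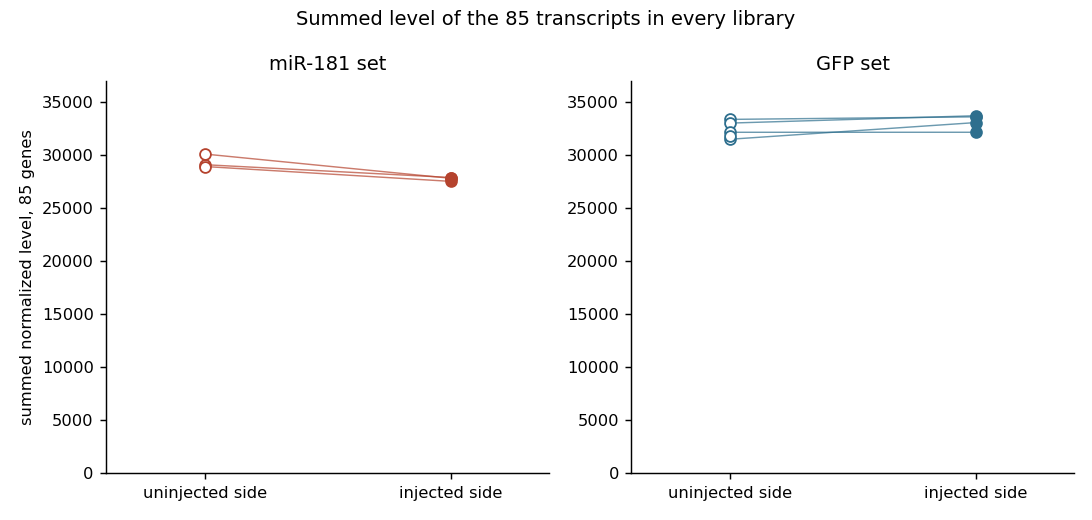
Summed level of the 85 members in every library, on axes that start at 0, with lines joining the sides of 1 mouse. In the miR-181 set the injected sides lie at 27526 to 27890 and the uninjected ones at 28929 to 30107, and in the GFP set the sides overlap.

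The 13 subunits from mitochondrial DNA gave another picture. After miR-181 injection 0 of 13 were called by limma, also 0 at an unadjusted p under 0.05, with a median of -0.14. After GFP injection 0 were called and the median was -0.27. Their medians varied widely between mice, at 0.10, -0.25 and -0.31 for miR-181 and at 0.01, -0.63, -0.05 and -0.11 for GFP. All 13 had a change below 0 in both sets, and in each set 1 mouse had a median above 0.

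Other nuclear genes of mitochondria were examined as lists. The TCA cycle, which feeds NADH and succinate to complexes I and II, had 4 of 16 members lower by limma after miR-181 injection and 0 higher, where 1.49% of all tested genes were lower and 4.39% higher, and a median of -0.20. Of these, Idh3g and Idh3b, subunits of isocitrate dehydrogenase, fell to 182 ± 10.4 from 227 ± 0.678 and to 279 ± 14.6 from 326 ± 4.15 (SD, n = 3 each, limma adjusted p 0.0187 and 0.048). Fh1, fumarate hydratase, which takes the product of complex II, fell to 74.7 ± 8.41 from 99.5 ± 1.05 (limma adjusted p 0.0343). The fourth was Suclg1, a subunit of succinyl-CoA ligase, at 127 ± 4.54 against 146 ± 2.09 (limma adjusted p 0.0496). In the GFP set 0 of the 16 were called and the median was 0.00. Among 46 tested assembly factors, 1 was lower after miR-181 injection, a share near the 1.49% of all genes, and the median was -0.04. The gene was Lyrm7, which handles Uqcrfs1 before it enters complex III, at 9.34 ± 1.59 against 14.7 ± 1.34 (SD, n = 3, limma adjusted p 0.0453). Of 20 genes for mitochondrial membrane structure and import, 1 was lower, where 1.49% of all tested genes were, with a median of -0.09. Chchd10, an intermembrane space protein, fell to 209 ± 35.5 from 361 ± 11.3, with a limma adjusted p of 0.0133. It was also called in the difference of the 2 injections, at -0.87 (limma adjusted p 0.0456), where 0 of the 85 subunits were.

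The carriers that link the complexes had 0 of 19 called, with a median of -0.09. Cyc1, the cytochrome of complex III whose symbol the rule does not take in, was at 254 ± 13.9 against 294 ± 7.41 (SD, n = 3), a log2 change of -0.21 (limma adjusted p 0.063). Cycs, cytochrome c, had a change of -0.12 (0.457). Of 17 glycolysis genes, 2 were lower, Hk1 and Pkm, where 1.49% of all tested genes were, and the list median was -0.05. Pkm fell to 1264 ± 126 from 1603 ± 16.1 (limma adjusted p 0.0471). Regulators of mitochondrial biogenesis had 0 of 16 called and a median of -0.03. Ppargc1a, a coactivator of such genes, was at 26.7 ± 1.803 against 30.2 ± 2.24 (log2 change -0.17, limma adjusted p 0.243), and Nrf1 at 12.8 ± 0.964 against 14.0 ± 1.98 (-0.12, 0.606). Mitochondrial ribosomal proteins had 0 of 78 called and a median of -0.04. Cytosolic ribosomal proteins had 0 lower and 2 higher of 84, where 4.39% of all tested genes were higher, with a median of 0.14. In the GFP set, none of these lists had a member called lower by limma, and their medians were 0.03 for assembly factors, -0.01 for membrane and import, 0.01 for carriers, 0.04 for glycolysis, -0.04 for regulators, 0.03 for mitochondrial and 0.12 for cytosolic ribosomal proteins.

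Markers of cell types were examined beside the subunits. Neuronal markers had 0 of 16 called by limma after miR-181 injection. At an unadjusted p under 0.05, 9 of the 16 were lower, where 10.7% of all tested genes were. Of the 16, 14 had a change below 0 and 2 above it, where 49.2% of all tested genes were below 0. The median of the neuronal markers was -0.15, more than the -0.07 of the subunits. Their summed level was 7217 to 8147 on the injected sides and 8442 to 8622 on the uninjected ones, without overlap, and 8518 to 8863 against 8424 to 8961 in the GFP set. Dopamine neuron markers had 0 of 14 called, with medians of -0.29 for miR-181 and 0.13 for GFP. Mouse by mouse these medians were 0.01, -0.88 and 0.06 for miR-181, and 0.003, -0.05, 0.37 and 0.19 for GFP. Microglia markers rose, 11 of 12 for miR-181 with a median of 1.26 and 10 of 12 for GFP with a median of 0.77. Of all tested genes, 4.39% were called higher for miR-181 and 1.34% for GFP. The summed level of the microglia list was 1483 to 2609 against 643 to 672 in the miR-181 set and 972 to 1272 against 503 to 674 in the GFP set. T and NK cell markers had 6 of 9 tested genes called higher in the miR-181 set and 0 of 4 in the GFP set. The list holds 10 genes with values. A gene was tested if its mean over both sides of a set was at least 1. High injected sides alone could bring a gene in, so the 2 counts cover unlike genes and are not compared. Over all 10 genes, the summed level was 41.5 to 147 against 15.3 to 19.1 for miR-181 and 26.5 to 32.3 against 11.7 to 22.9 for GFP. Astrocyte markers had 2 and 1 of 10 higher, and oligodendrocyte markers 0 of 10 in both sets, with medians of 0.00 and 0.11. Among the miR-181 mice, the median change of mice 1, 2 and 3 was -0.06, -0.11 and -0.07 for the subunits, -0.05, -0.20 and -0.12 for neuronal markers, -0.11, -0.29 and -0.19 for the TCA cycle, and 0.93, 1.63 and 1.30 for microglia markers. Mouse 2 had the largest change in each of these 4 lists, and the part of these cell types in the change of the subunits was not tested.

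**Figure D5:**
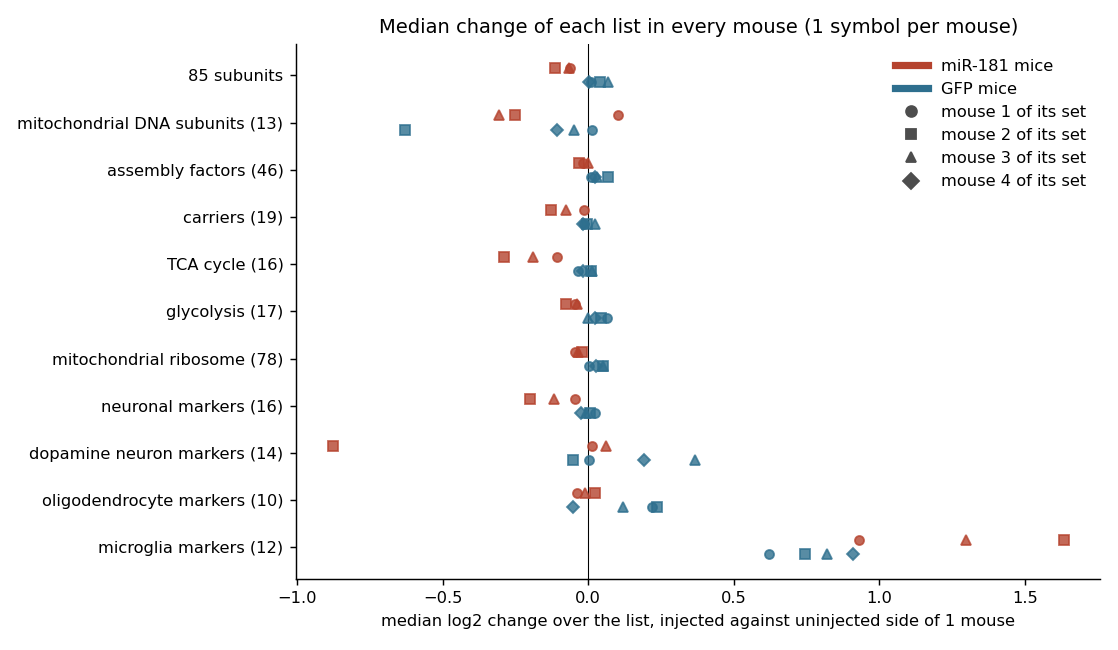
Median log2 change of each list between the sides of each mouse, with the number of genes in parentheses. Red symbols are the 3 miR-181 mice, blue symbols the 4 GFP mice, and the shape gives the mouse. The miR-181 mice lie at -0.06 to -0.11 for the 85 subunits and at -0.11 to -0.29 for the TCA cycle, and microglia markers lie at 0.62 or above in every mouse.

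In the authors' deposited table for miR-181, the q-value beside the coefficient was at or under 0.05 for 10 members, all lower, 11.8% against 4.12% of 17950 genes with a value, and 0 were higher, against 6.55%. By the other q-value of the authors' deposited table, 4 members were lower, Uqcrfs1 (0.0218), Cox5b (0.033), Atp5a1 (0.0364) and Sdhd (0.0461), 4.71% against 1.41%, and 0 were higher, against 4.04%. In the authors' deposited table for GFP, 0 of 84 members with a value reached 0.05 by either q-value, against 1.96% and 1.16% of genes that were higher and 0.0124% and 0% that were lower.

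The members differed in what their sequences hold. For the 5 members with a seed match, the median change was -0.12 after miR-181 injection, against -0.07 for the 78 without one, and 0.01 against 0.03 after GFP injection. The 2 members with an 8-base site differed, Sdha with a change of -0.25 and Atp5md with one of -0.12, and Atp5md was also at -0.08 after GFP injection. Of those with 7-base sites, Cox5b had a change of -0.24, Atp5l one of -0.07 and Atp5g2 one of -0.03. By contrast Uqcrfs1 and Sdhd, the other called members, held no match in their annotated 3′ UTRs. Across members, longer coding sequences went with lower changes in the miR-181 set, with a Spearman correlation of -0.33 and a Pearson correlation of -0.18 over 83 genes that share the same libraries, so that no p is given. In the GFP set these were -0.16 and -0.16. Members above the median coding length of 411 bases had a median change of -0.09 in the miR-181 set, and the others one of -0.05. All tested genes split at the same length had 0.00 above it and 0.02 at or under it.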

How the data were processed

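RNA-seq of 15 libraries from 8 mice was used. The deposited tables give normalized signal per gene and library, made with kallisto 0.43.1 and sleuth 0.30.0 per the submitters' processing notes, on GRCm38. Each library's deposited signal sums to 970505 to 1040288, so it was taken to be TPM scaled by 1 factor per library, which no header states. Read depth is unknown. The deposited q-values and coefficients are the authors' own, and the deposited coefficient was read as a natural log, since its median ratio to the log2 change was 0.717 and 0.729 (natural log of 2, 0.693).

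Repeated gene entries (395) were left out. Log2(value + 0.5) was tested with limma 3.58.1 (R 4.3.3, intensity trend, two-sided) over all genes with a mean of at least 1, with Benjamini-Hochberg adjustment over all of them at 0.05. Fold changes are on this scale, which understates those of low genes. The tables were normalized separately and fitted apart. The difference was fitted on the log2 change of each mouse. Summaries used Python 3.11.15, numpy 2.4.6, pandas 2.3.3, scipy 1.17.1 and matplotlib 3.10.9. The tests of the miR-181 and GFP sets, not that of the difference, were checked on simulated data. Of 50 genes drawn from all tested genes and given a log2 change of 0.25, the miR-181 test called 4% and the GFP test 22%. At a change of 0.5 each called 42%. These genes were of all levels, while most members are abundant, so the shares need not hold for the members. A count of 0 called does not show that small changes are absent.

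Members and lists were chosen with earlier results of these data known. Named members were those called in any of the 3 fits as first set (miR-181, GFP and the difference, not the alternatives), the 3 with the smallest p per complex for miR-181 and the 2 for GFP, the smallest p of the difference, and set core subunits and isoform families. A gene that this rule names is not reported here. Ndufab1, Ndufb4, Ndufs5, Atp5l and Atp5md fall outside that rule and were named after their values or sequences were seen. Ndufs3, Ndufb4c, Ndufb1-ps and Cox7a2l also fall outside it and were named only in describing how members were chosen. Cytosolic ribosomal genes are symbols starting Rpl, Rplp or Rps, without the kinases and binding protein that share the prefix. Same-numbered libraries are the sides of 1 mouse, per the labels, and their deviations correlated at 0.14 to 0.257 in the miR-181 set and 0.0177 to 0.192 in the GFP set. Alternatives were other pseudocounts, filters and scalings, no trend, mouse as a block, and libraries left out. The main fits of the miR-181 and GFP sets have no mouse term and leave out the pairing. Their p measures the spread between libraries of the same side. In the block fit and in the difference, p measures the spread of the changes within mice.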

Additional observations from a re-analysis of the deposited data

Results flagged for a closer look

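In the GFP set, 86 groups of 4 or 5 libraries were tested for a library far from the others, and 4 gave one, where chance gives about 1 in 20. Atp5d was at 327.1 in the uninjected library of mouse 5, below the 350.6 to 351.5 of the other uninjected libraries. Ndufa4 was at 719.5 in the uninjected library of mouse 2, Cox5a at 487.1 in the injected library of mouse 4, and Cox7a2 at 460 in the injected library of mouse 3. Each lay far from the rest of its group for its range. None of the 4 members was called in the GFP set.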

How the results depend on the processing

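For miR-181 injection, the 3 called members became 0 with no filter on low values, 0 without the intensity trend and 7 after median centring, which added Atp5a1, Ndufs5, Ndufs7 and Uqcrc1. Leaving out 1 library at a time gave 0 to 10 members, with 10 when the injected library of mouse 1 was left out. Without both libraries of miR-181 mouse 2 the count was 0. For these, the cause was not tested. With mouse as a replicate block, which uses the pairing of the sides, 1 member (Cox5b) was called. For the difference of the injections, leaving out 1 mouse gave 0 to 4 members, with 4 without miR-181 mouse 1. The members' median for miR-181 was -0.14 after median centring, which moved all genes to -0.06, and -0.08 to -0.05 with 1 library left out. For GFP it was -0.017 after quantile normalization, which moved all genes to -0.024, and 0 members were called under all 18 alternatives. No result reversed its direction among those called. Read depth is unknown, so the precision of low isoforms cannot be given.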
